A study of Mus musculus with 18 samples.

Results

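The zQ175 effect within CK2α'(+/-) striatum was the comparison of 5 zQ175:CK2α'(+/-) mice with 3 CK2α'(+/-) mice, chosen by the genotype in the labels. These 8 libraries were part of 18 from the series, which also held 5 WT and 5 zQ175 mice. Both groups compared carried 1 deleted CK2α' allele (gene Csnk2a2, the alternative catalytic subunit of casein kinase 2), so that by genotype the groups differed by the zQ175 allele. They also differed in sex, with more males among the CK2α'(+/-) and more females among the zQ175:CK2α'(+/-) mice by the study's methods. zQ175 is a heterozygous knock-in of a chimeric human and mouse Htt exon 1 with an expanded CAG repeat, expressed from the mouse's own Htt locus and so not restricted to a cell type. The strain was C57BL/6 by the labels and C57BL/6J by the study's methods, with the CK2α' deletion originally made in mixed 129/SvEv-C57BL/6J stock, and were 12 to 14 months old. RNA came from dissected striatum, with 1 library per mouse. In such bulk tissue, fewer cells of a type and less RNA per cell cannot be told apart.

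Total counts ranged from 15616338 to 22702547 in the CK2α'(+/-) libraries and from 13612381 to 19058342 in the zQ175:CK2α'(+/-) libraries. Levels are given as CPM, counts scaled to library size after TMM normalization. Csnk2a2 followed the CK2α' labels, with 14.7 to 19.9 CPM in the 8 mice of the comparison and 29.4 to 37.5 CPM in the 10 mice with both alleles. The defining genes of striatal projection neurons, Drd1, Drd2, Ppp1r1b, Bcl11b, Penk and Tac1, were between 55.8 and 1481 CPM across the 8 libraries. Several libraries stood apart. CK2α'(+/-) replicate 1 and zQ175:CK2α'(+/-) replicate 2 held 908 and 2904 CPM of the choroid plexus gene Ttr, against 1.80 to 8.36 CPM in the other 6. CK2α'(+/-) replicate 3 had the highest Penk, Drd1 and Ppp1r1b of the 8. Outside the comparison, the libraries labelled WT replicate 4 and WT replicate 5 lay with the knock-in libraries over the genes called here. They enter the fit through the shared estimate of the spread, and counts of calls are given with and without them.

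Huntington's disease is caused by an expanded glutamine stretch in huntingtin, and the projection neurons of the striatum are the cells most affected. These neurons form a direct pathway, marked by dopamine D1 receptors, dynorphin and substance P, and an indirect pathway, marked by dopamine D2 and adenosine receptors and enkephalin. Loss of projection neuron transcripts is a known early feature of knock-in striatum. Casein kinase 2 is a kinase with many substrates, of which CK2α' is the catalytic subunit with the narrower expression.

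Of 20914 genes tested with edgeR's quasi-likelihood test, 124 (0.593%) passed a Benjamini-Hochberg adjusted p (FDR) under 0.1 between zQ175:CK2α'(+/-) and CK2α'(+/-) mice. Of these, 47 (0.225%) were higher and 77 (0.368%) lower in zQ175:CK2α'(+/-) mice. The calls rest on a difference between these same mice, so that separated groups follow in large part from the choice. Separation is no added support, here or for the called genes named below. The CPM of the groups did not overlap for 123 of the 124, against 8.34% of all genes tested (3.86% higher and 4.48% lower). The exception was the histone pseudogene Hist1h2al, named after its values were seen, with 9.06, 8.18, 5.02, 5.15 and 0.0601 CPM in the zQ175:CK2α'(+/-) mice and 3 counts over the CK2α'(+/-) mice. Histone genes have near-identical copies, so that its counts are uncertain. An unadjusted p under 0.05 was found for 1921 genes (9.19%), and DESeq2, which tested 37559 genes, called 322 (0.857%), all 124 among them. The median absolute log2 fold change of the called genes was 0.95, and 60 of them changed by more than 1 on the log2 scale. The median log2 fold change over all genes tested was 0.00, and 50.7% had a higher value in zQ175:CK2α'(+/-) mice. Fewer genes passed when a mouse was left out, with 6 without CK2α'(+/-) replicate 2, 8 without CK2α'(+/-) replicate 3, and 28 to 48 without any other of the 8. Crnde, Gabrd, Lrrn3, Pcp4 and Ciart passed whichever of the 8 mice was left out. With the libraries labelled WT replicates 4 and 5 left out, 291 of 20629 genes tested (1.41%) passed. Those libraries stood apart over the called genes themselves, so that calls gained or kept without them, here and in the lists that follow, follow in part from that choice and are no support. With only the 8 libraries in the fit 461 of 18974 (2.43%) passed, 123 of the 124 among them.

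**Figure D1:**
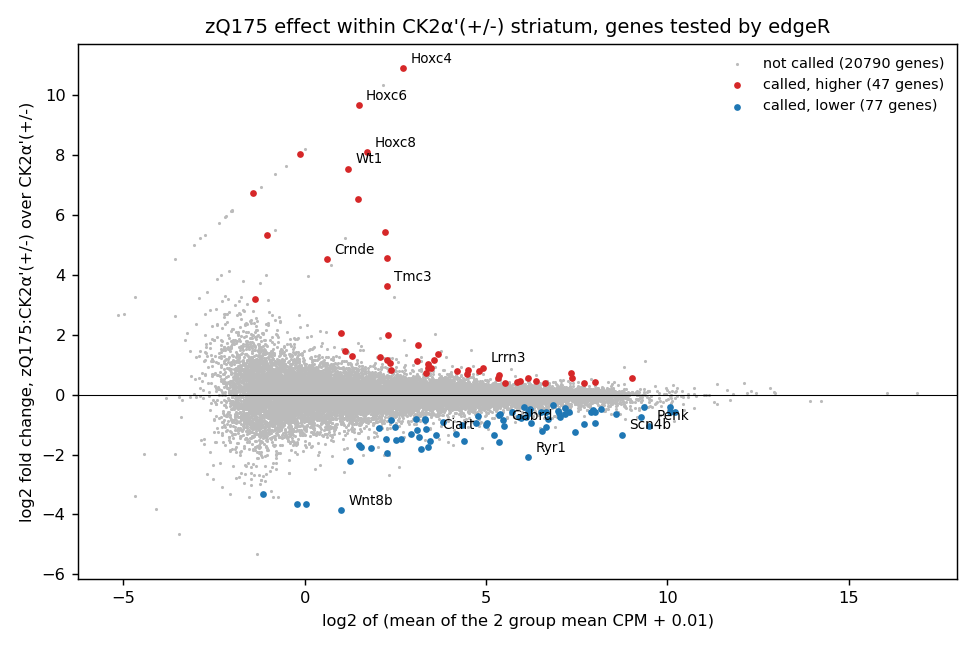
Log2 fold change of zQ175:CK2α'(+/-) over CK2α'(+/-) mice (vertical axis) against mean level (horizontal axis, log2 of CPM plus 0.01) for the 20914 genes tested, with the 47 called higher in red and the 77 called lower in blue. The largest called increases are Hoxc genes at low CPM, and the called decreases include abundant striatal genes such as Penk and Scn4b. Fitted values of genes with no count in the CK2α'(+/-) mice depend on the prior count of the fit and are no measure of size.

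Penk and Adora2a, genes of the indirect pathway, fell in zQ175:CK2α'(+/-) mice. Penk, the precursor of enkephalin, had 838, 799 and 1300.2 CPM in the CK2α'(+/-) mice and 582, 474, 441, 520.4 and 360.5 CPM in the zQ175:CK2α'(+/-) mice. The groups did not overlap, and Penk was 2.06-fold lower by the means (log2 fold change -1.04 ± 0.25 (SE), adjusted p = 0.0989). Adora2a, an adenosine receptor, had 127, 122 and 143 CPM in the CK2α'(+/-) mice and 73.6, 47.95, 53.9, 58.3 and 47.96 CPM in the zQ175:CK2α'(+/-) mice (log2 fold change -1.21 ± 0.27 (SE), adjusted p = 0.0733). Every zQ175:CK2α'(+/-) mouse lay below every CK2α'(+/-) mouse. Of the 6 indirect-pathway genes tested, all had a lower value, and the median log2 fold change was -0.87. Of the 6, 2 passed (4 without the libraries labelled WT replicates 4 and 5, and 1 with the Xist level as a covariate). Among all genes tested, 0.593% passed, 8.34% did not overlap and 50.7% had a higher value. Drd2, the dopamine D2 receptor, did not overlap between groups either, at 133, 129 and 185 CPM against 98.3, 90.2, 90.8, 106 and 72.96 CPM, and did not pass (log2 fold change -0.70 ± 0.24 (SE), adjusted p = 0.304). Gpr6, an orphan receptor of these neurons, was likewise separated and did not pass (-1.04, adjusted p = 0.194).

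No direct-pathway gene of 9 passed in the main edgeR fit of all 18 libraries. Without the libraries labelled WT replicates 4 and 5, 1 passed. With DESeq2 1 passed, with Xist as a covariate 1, and with only the 8 libraries 2. Drd1, the dopamine D1 receptor, had 109, 110.5 and 149 CPM in the CK2α'(+/-) mice and 75.1, 71.9, 70.6, 79.99 and 59.98 CPM in the zQ175:CK2α'(+/-) mice, without overlap (log2 fold change -0.78 ± 0.26 (SE), adjusted p = 0.267). Chrm4, the muscarinic M4 receptor, gave -0.95, adjusted p = 0.143, and Pdyn, the dynorphin precursor, -0.79, adjusted p = 0.278, with overlapping groups for Pdyn. Tac1, the substance P precursor, overlapped as well (-0.38, adjusted p = 0.574). Of the 9 genes, 5 had a lower value and 4 a higher one, up to 0.31, and the median was -0.28. Whether the 2 pathways differed in their change was not tested.

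Of the signalling genes shared by projection neurons, 5 of 29 fell, 27 had a lower value, 19 did not overlap between groups and the median was -0.64. The shares among all genes tested were 0.593% called, 8.34% not overlapping and 50.7% with a higher value. Ryr1, a calcium release channel of the endoplasmic reticulum, had 114, 92.3 and 143 CPM in the CK2α'(+/-) mice and 39.3, 19.7, 23.8, 33.7 and 19.95 CPM in the zQ175:CK2α'(+/-) mice. It was 4.26-fold lower (log2 fold change -2.09 ± 0.41 (SE), adjusted p = 0.0388), with no overlap between groups. Pcp4, a calmodulin-binding regulator, had 211, 303 and 326 CPM in the CK2α'(+/-) mice and 122, 126, 161, 129 and 163 CPM in the zQ175:CK2α'(+/-) mice (log2 fold change -0.99 ± 0.14 (SE), adjusted p = 0.0038). Its relative Pcp4l1 had 279, 292 and 298 CPM in the CK2α'(+/-) mice and 203, 204, 209, 204 and 206 CPM in the zQ175:CK2α'(+/-) mice (log2 fold change -0.50 ± 0.10 (SE), adjusted p = 0.0371), with a narrow spread in both groups. Arpp19, a phosphoprotein that inhibits protein phosphatase 2A, had 275, 307 and 439.5 CPM in the CK2α'(+/-) mice and 185, 169, 184, 201 and 151 CPM in the zQ175:CK2α'(+/-) mice (log2 fold change -0.93 ± 0.23 (SE), adjusted p = 0.0966). Cnr1, the cannabinoid CB1 receptor, had 203, 263 and 279 CPM in the CK2α'(+/-) mice and 132, 101, 101, 103 and 87.2 CPM in the zQ175:CK2α'(+/-) mice (log2 fold change -1.24 ± 0.31 (SE), adjusted p = 0.0995). Groups were separated for all 5. Without the libraries labelled WT replicates 4 and 5, 12 of the 29 passed. In the main edgeR fit the remaining 24 did not pass, among them Ppp1r1b, which encodes DARPP-32 (-0.69, adjusted p = 0.297), the phosphodiesterases Pde10a (-0.87, adjusted p = 0.196) and Pde1b (-0.76, adjusted p = 0.138), and the adenylyl cyclase Adcy5 (-0.67, adjusted p = 0.216).

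Among the channel genes, Scn4b, the β4 subunit of sodium channels, had 540.4, 628 and 700.5 CPM in the CK2α'(+/-) mice and 278, 232, 239, 268 and 214 CPM in the zQ175:CK2α'(+/-) mice and was 2.53-fold lower (log2 fold change -1.34 ± 0.25 (SE), adjusted p = 0.0335). All 12 channel genes had lower values (median -0.43), and 3 passed without the libraries labelled WT replicates 4 and 5. In the main edgeR fit Kcnip2 (-0.76, adjusted p = 0.163) and Cacna1c (-0.35, adjusted p = 0.198) did not pass. None of the 12 transcription factors of projection neurons passed, and their median was -0.12. The smallest p-values there belonged to Foxp2 (0.37, adjusted p = 0.449), Meis2 (-0.32, adjusted p = 0.64) and Rxrg (-0.44, adjusted p = 0.695). Of 7 genes that the study names from a published signature of astrocytes in Huntington's disease, several of which also stand in the projection neuron lists, 5 fell, namely Pcp4, Scn4b, Pcp4l1, Arpp19 and Penk. Ppp1r1b and Bcr (-0.47, adjusted p = 0.265) did not pass. The median of the 7 was -0.93, and none overlapped between groups. Among all genes tested, 8.34% did not overlap and 0.593% were called. Of the 7, 6 passed without the libraries labelled WT replicates 4 and 5. That list was chosen by the study on libraries of this series and is not independent evidence of the direction. CK2α'(+/-) replicate 3, as above, stood high in this group, and without it the medians were -0.65 for the indirect pathway, -0.06 for the direct pathway, -0.44 for signalling and -0.27 for channels. Calls were lost whichever of the 8 mice was left out, with 0 to 1 for the indirect pathway, 1 to 3 for signalling, 0 to 1 for channels and 1 to 3 of the study's 7 genes. With the Xist covariate 1 indirect-pathway, 3 signalling and 1 channel gene and 4 of the study's 7 passed. With the replicate block the counts of these 4 lists were 0, 1, 0 and 1.

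**Figure D2:**
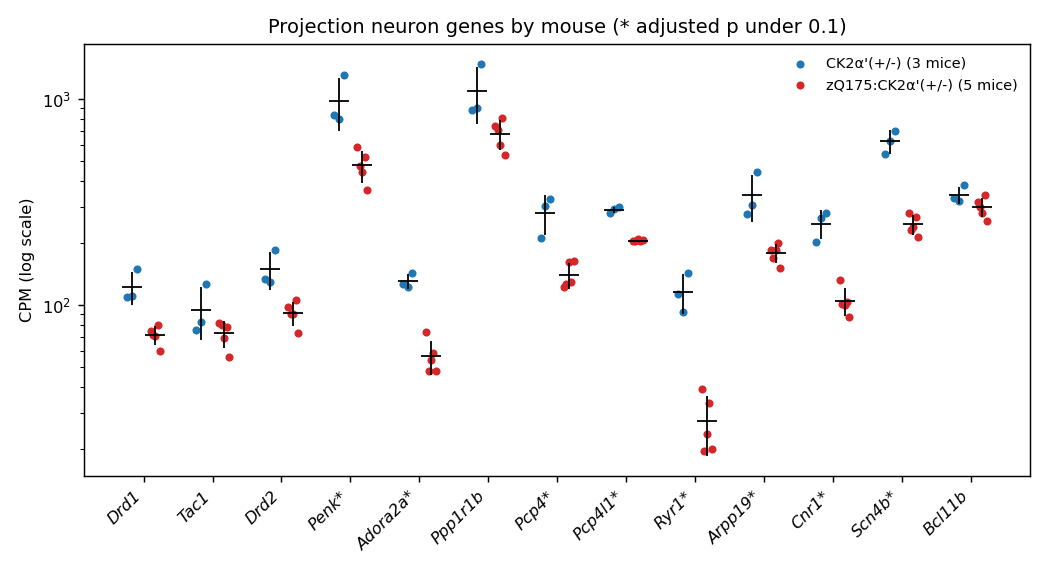
CPM (log axis) of 13 projection neuron genes in each of the 3 CK2α'(+/-) mice (blue) and 5 zQ175:CK2α'(+/-) mice (red), with the mean and SD in black and an asterisk on genes that passed. The groups are separated for Drd1, Drd2 and Ppp1r1b as well as for the called genes, and they overlap for Tac1 and Bcl11b.

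The largest increases were in genes that the CK2α'(+/-) mice held at or near 0 counts. Hoxc4, Hoxc6 and Hoxc8 are neighbouring homeobox genes on chromosome 15 that pattern the body axis in development. Hoxc4 (GRCm38 chromosome 15, 103018934 to 103036852) had no count in any of the CK2α'(+/-) libraries and 9.46, 13.4, 11.8, 20.2 and 10.8 CPM in the zQ175:CK2α'(+/-) mice. Against a floor of 3 counts over the group it was at least 255-fold higher (adjusted p = 0.0733). Hoxc6 (GRCm38 chromosome 15, 102998257 to 103011881) was also at 0 in the CK2α'(+/-) mice, with 4.503, 3.302, 5.14, 10.2 and 4.87 CPM in the zQ175:CK2α'(+/-) mice, at least 111-fold higher (adjusted p = 0.0733). Hoxc8 (GRCm38 chromosome 15, 102990607 to 102994111) had 1 count over the CK2α'(+/-) mice and 568 over the zQ175:CK2α'(+/-) mice, a ratio of 392 with a 95% counting interval of 70.1 to 15513 (adjusted p = 0.0388). Of 9 Hoxc genes in the table, 5 had counts enough to be tested, and 4 of these were at 0 in the CK2α'(+/-) mice, so that they could reach the test only through other groups. Hoxc5 (9.57, 6.68, 7.47, 14.5 and 6.13 CPM against 0, adjusted p = 0.101) and Hoxc9 (adjusted p = 0.158) did not pass, and were looked at after the values of the others were seen. Hoxc6, Hoxc8 and Hoxc9 lie within the annotated span of Hoxc5 on the same strand, so that reads between them could be assigned uncertainly. No Hoxa or Hoxb gene had counts enough to be tested. Of 9 Hoxd genes in the table, 2 were tested, both had a higher value and 0 were called.

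Further genes were separated between the same mice at low levels. Wt1, a zinc finger transcription factor, had 1 count over the CK2α'(+/-) mice and 3.26, 2.66, 5.82, 7.54 and 3.55 CPM in the zQ175:CK2α'(+/-) mice, a ratio of 269.9 with a counting interval of 48.2 to 10687 (adjusted p = 0.0689). Pax2, a paired box transcription factor, was at 0 in the CK2α'(+/-) mice and had 2.93, 0.861, 1.22, 1.698 and 2.28 CPM in the zQ175:CK2α'(+/-) mice, at least 35.4-fold higher (adjusted p = 0.0893). Like the Hoxc genes at 0, Pax2 could reach the test only through other groups. Onecut1, a cut homeobox factor, had 0.303, 0.263 and 0 CPM in the CK2α'(+/-) mice and 8.27, 7.82, 11.2, 9.24 and 8.95 CPM in the zQ175:CK2α'(+/-) mice (log2 fold change 5.43 ± 1.34 (SE), adjusted p = 0.0989). Lmx1b, a LIM homeobox factor, had 0.505, 0.263 and 0.4004 CPM in the CK2α'(+/-) mice and 9.29, 6.68, 9.12, 11.04 and 10.3 CPM in the zQ175:CK2α'(+/-) mice (log2 fold change 4.57 ± 1.11 (SE), adjusted p = 0.0981). Each of these factors was separated between groups. Crnde, a long noncoding RNA, had 0.152, 0.131 and 0.0667 CPM in the CK2α'(+/-) mice and 2.65, 2.297, 2.45, 4.299 and 2.88 CPM in the zQ175:CK2α'(+/-) mice (log2 fold change 4.53 ± 0.54 (SE), adjusted p = 0.000798), the smallest adjusted p of the comparison. Tmc3, of the transmembrane channel-like family, had 0.758, 0.613 and 0.801 CPM in the CK2α'(+/-) mice and 9.57, 6.25, 12.6, 6.48 and 9.796 CPM in the zQ175:CK2α'(+/-) mice (log2 fold change 3.63 ± 0.63 (SE), adjusted p = 0.0208).

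The other increases under the naming rule were smaller and started from a measurable level. Slc25a24, a mitochondrial carrier of ATP and magnesium, was 4.23-fold higher (2.04, adjusted p = 0.0733), Emx2os, an RNA antisense to Emx2, 4.02-fold (1.98, adjusted p = 0.0388) and Sfmbt2, a Polycomb group gene, 3.16-fold (1.67, adjusted p = 0.059). Sfmbt2 had 4.14, 3.5001 and 4.87 CPM in the CK2α'(+/-) mice and 12.2, 14.6, 13.7, 13.3 and 12.1 CPM in the zQ175:CK2α'(+/-) mice, without overlap. Since it was not stated whether counting used the strand, reads of Emx2os and Emx2 cannot be told apart. Some more abundant genes, named after their values were seen, also rose. Lrrn3, a neuronal leucine-rich repeat protein, had 22.8, 18.9 and 22.2 CPM in the CK2α'(+/-) mice and 43.1, 35.96, 34.9, 44.7 and 39.8 CPM in the zQ175:CK2α'(+/-) mice (log2 fold change 0.90 ± 0.12 (SE), adjusted p = 0.00278), without overlap. Polr2a, the largest subunit of RNA polymerase II, had 116, 137 and 112 CPM in the CK2α'(+/-) mice and 196, 191, 203, 219.7 and 199 CPM in the zQ175:CK2α'(+/-) mice (log2 fold change 0.73 ± 0.17 (SE), adjusted p = 0.0733), without overlap. The chromatin remodeller Chd3 (0.55, adjusted p = 0.0733), the transcription factor Sox11 (0.68, adjusted p = 0.0574) and the adhesion molecule Chl1 (0.56, adjusted p = 0.0733) rose as well.

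Large decreases outside the projection neuron lists ran from low to moderate levels. Wnt8b, a Wnt ligand, had 2.63, 3.68 and 4.87 CPM in the CK2α'(+/-) mice and 0, 0.861, 0.245, 0.212 and 0 CPM in the zQ175:CK2α'(+/-) mice (log2 fold change -3.86 ± 0.95 (SE), adjusted p = 0.0989). Vwa7, a protein with a von Willebrand factor A domain, had 2.68, 4.73 and 4.405 CPM in the CK2α'(+/-) mice and 1.24, 0.574, 0.612, 0.902 and 0.841 CPM in the zQ175:CK2α'(+/-) mice (log2 fold change -2.22 ± 0.40 (SE), adjusted p = 0.025). In both, no zQ175:CK2α'(+/-) mouse reached the lowest CK2α'(+/-) mouse. Ddit4l, an inhibitor of mTOR signalling, had 12.1, 15.2 and 21.4 CPM in the CK2α'(+/-) mice and 5.404, 4.88, 5.94, 3.66 and 4.45 CPM in the zQ175:CK2α'(+/-) mice (log2 fold change -1.73 ± 0.37 (SE), adjusted p = 0.0652). The orphan receptor Gpr139 (-1.56, adjusted p = 0.0733), the extracellular matrix gene Abi3bp (-1.54, adjusted p = 0.0733), the collagen Col5a1 (-1.75, adjusted p = 0.059) and the myosin Myo5c (-1.81, adjusted p = 0.0989) fell by 2.92- to 3.47-fold by the means. Among unnamed or noncoding loci, Gm19410 (-1.59, adjusted p = 0.059), Gm49375 (-1.96, adjusted p = 0.0733), 9330111N05Rik (-1.77, adjusted p = 0.0733) and 4930412C18Rik (-1.67, adjusted p = 0.0733) fell too. Gm49375 and 9330111N05Rik overlap on the same strand, so that they may not be separate measurements. Of the called genes that the naming rule left out, S100a10, an annexin partner, had 8.23, 15.4 and 15.4 CPM in the CK2α'(+/-) mice and 4.84, 3.302, 4.59, 6.05 and 5.23 CPM in the zQ175:CK2α'(+/-) mice (log2 fold change -1.43 ± 0.27 (SE), adjusted p = 0.0335). The calcium-binding repressor Kcnip3 (-0.57, adjusted p = 0.0335), the Rap1 inactivator Rap1gap (-0.65, adjusted p = 0.0236), the plasma membrane calcium pump Atp2b1 (-0.58, adjusted p = 0.0989) and the ferritin heavy chain Fth1 (-0.41, adjusted p = 0.0966) fell as well.

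Circadian clock genes were the list with the most calls in the main edgeR fit, 7 of 15, all lower. By share the study's 7 genes led, with 71.4% called against 46.7%. The signalling genes had more calls than the clock genes with DESeq2 (9 against 8), with only the 8 libraries (20 against 11) and with the Xist covariate (3 against 2). In the molecular clock, CLOCK and BMAL1 act on E-boxes to drive Per, Cry and the PAR bZIP genes, PER and CRY proteins repress that drive, and the PAR bZIP factors act on D-boxes. The window from 250 bases before to 50 bases after the annotated start is shown for 4 of the 5 called genes with a match to 1 of the motifs searched, to show each motif (RefSeq, GRCm38.p6, nearest to the deposited gene start, written along the gene's strand). Capitals mark an E-box (CACGTG), a D-box (TTATGNAA or TTNCATAA) or a cyclic AMP response element (TGACGTCA).
Ciart (chr3:95882179-95882478, minus strand): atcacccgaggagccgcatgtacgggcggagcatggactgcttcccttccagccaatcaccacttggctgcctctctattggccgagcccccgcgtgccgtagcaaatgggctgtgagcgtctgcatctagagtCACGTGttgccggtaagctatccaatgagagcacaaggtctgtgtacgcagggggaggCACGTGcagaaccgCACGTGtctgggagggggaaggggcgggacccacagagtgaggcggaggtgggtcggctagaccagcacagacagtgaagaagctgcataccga
Per1 (chr11:69098699-69098998, plus strand): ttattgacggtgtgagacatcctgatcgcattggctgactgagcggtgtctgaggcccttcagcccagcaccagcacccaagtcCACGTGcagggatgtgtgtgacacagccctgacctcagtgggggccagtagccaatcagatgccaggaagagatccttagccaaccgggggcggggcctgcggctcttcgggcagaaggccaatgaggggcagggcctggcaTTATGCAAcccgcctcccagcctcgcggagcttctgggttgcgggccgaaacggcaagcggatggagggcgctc
Per3 (chr4:151044616-151044915, minus strand): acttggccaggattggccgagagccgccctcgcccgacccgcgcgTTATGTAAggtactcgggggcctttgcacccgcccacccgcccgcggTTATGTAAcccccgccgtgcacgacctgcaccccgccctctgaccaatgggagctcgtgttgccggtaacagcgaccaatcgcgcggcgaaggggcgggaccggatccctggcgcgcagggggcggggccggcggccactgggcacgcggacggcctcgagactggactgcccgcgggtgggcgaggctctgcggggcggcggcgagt
Hlf (chr11:90390868-90391167, minus strand): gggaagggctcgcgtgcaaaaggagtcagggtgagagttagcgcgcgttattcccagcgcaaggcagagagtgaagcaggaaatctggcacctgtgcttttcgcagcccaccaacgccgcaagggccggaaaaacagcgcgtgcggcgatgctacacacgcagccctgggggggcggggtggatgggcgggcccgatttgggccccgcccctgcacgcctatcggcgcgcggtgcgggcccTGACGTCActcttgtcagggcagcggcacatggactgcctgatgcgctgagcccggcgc
Of the 7 called clock genes, 3 had an E-box in this window, 2 a D-box and 1 a cyclic AMP response element, and Cry2 and Dbp had none of them. Tef, not shown, held an E-box. Among the windows of all 32851 annotated starts, 7.15% held an E-box, 3.38% a D-box and 1.79% a cyclic AMP response element. Of the 7 other clock genes with a window, 2 held an E-box and none the other motifs. The window of Per1 lies 3732 bases from the start deposited for the gene. Per2 had no entry. A match is a description of the letters and not a site of binding.

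Ciart, a repressor of CLOCK and BMAL1 whose window held 3 E-boxes, had 16.5, 19.1 and 16.8 CPM in the CK2α'(+/-) mice and 8.16, 6.82, 7.899, 5.52 and 6.13 CPM in the zQ175:CK2α'(+/-) mice. It was 2.53-fold lower (log2 fold change -1.34 ± 0.21 (SE), adjusted p = 0.00736), and the groups did not overlap. Dbp, a PAR bZIP factor and output of the clock, had 127, 133 and 154 CPM in the CK2α'(+/-) mice and 74.98, 53.9, 62.3, 72.7 and 62.1 CPM in the zQ175:CK2α'(+/-) mice, 2.11-fold lower (log2 fold change -1.08 ± 0.18 (SE), adjusted p = 0.0152). The other PAR bZIP factors were lower as well. Tef had 272, 275 and 302 CPM in the CK2α'(+/-) mice and 202, 182, 185, 211 and 171 CPM in the zQ175:CK2α'(+/-) mice (log2 fold change -0.57 ± 0.13 (SE), adjusted p = 0.0717), and Hlf, with the cyclic AMP response element, had 167, 205 and 159.6 CPM in the CK2α'(+/-) mice and 111, 92.1, 119.9, 118 and 127 CPM in the zQ175:CK2α'(+/-) mice (log2 fold change -0.64 ± 0.15 (SE), adjusted p = 0.0905). Neither overlapped between groups. Of the repressors, Per1 had 143, 165 and 140.2 CPM in the CK2α'(+/-) mice and 85.9, 105, 102, 114 and 108 CPM in the zQ175:CK2α'(+/-) mice (log2 fold change -0.54 ± 0.12 (SE), adjusted p = 0.0717). Per3, with 2 D-boxes, had 86.97, 96.1 and 81.8 CPM in the CK2α'(+/-) mice and 66.6, 54.1, 60.01, 54.4 and 54.4 CPM in the zQ175:CK2α'(+/-) mice (log2 fold change -0.61 ± 0.14 (SE), adjusted p = 0.0733). Cry2 had 125, 121 and 139 CPM in the CK2α'(+/-) mice and 101, 93.4, 102, 104 and 102 CPM in the zQ175:CK2α'(+/-) mice (log2 fold change -0.35 ± 0.08 (SE), adjusted p = 0.0733), the smallest change among the called clock genes.

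The clock genes that did not pass were Per2 (-0.45, adjusted p = 0.429), Nr1d1, which encodes REV-ERBα (-0.49, adjusted p = 0.143), Nr1d2 (-0.30, adjusted p = 0.304), Bhlhe41 (-0.43, adjusted p = 0.188), Npas2 (-0.43, adjusted p = 0.481), Cry1 (0.14, adjusted p = 0.881), Clock (0.04, adjusted p = 0.919) and Arntl, which encodes BMAL1. Arntl had 31.4, 32.9 and 38.5 CPM in the CK2α'(+/-) mice and 41.1, 46.3, 38.9, 45.8 and 47.4 CPM in the zQ175:CK2α'(+/-) mice (log2 fold change 0.36 ± 0.16 (SE), adjusted p = 0.514) and was the only clock gene with separated groups in which the zQ175:CK2α'(+/-) mice were higher. Among all genes tested, 0.593% were called, 8.34% did not overlap and 50.7% had a higher value. Over the 15 clock genes, 12 had a lower value, 11 did not overlap and the median was -0.45. When any 1 of the 8 mice was left out, 1 to 3 of the 15 passed, and the median lay between -0.49 and -0.43. Without the libraries labelled WT replicates 4 and 5, 9 of the 15 passed. Bhlhe40, a clock repressor outside the list, was called too (-0.56, adjusted p = 0.0989), as was Fbxl21, a ubiquitin ligase subunit that acts on CRY proteins (-0.84, adjusted p = 0.0335). Both were named after their values were seen. Transcripts of these genes cycle over the day, and the study's methods place its experiments in the light phase without giving an hour of tissue collection, so that its part in these differences was not tested. With Xist as a covariate, 2 of the 15 passed and the median was -0.48.

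**Figure D3:**
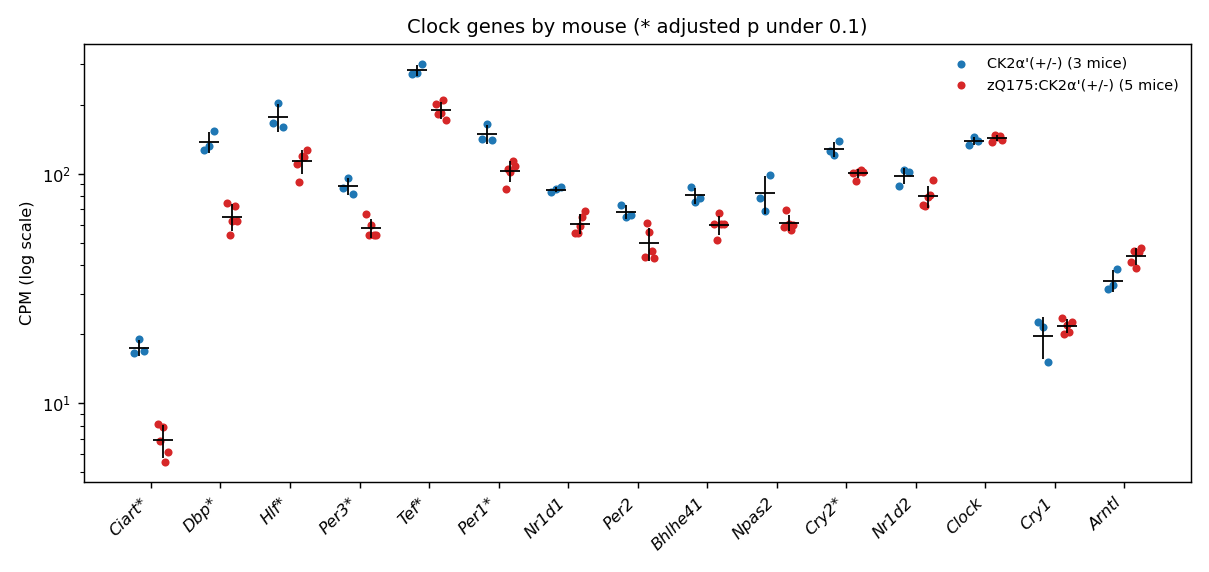
CPM (log axis) of the 15 clock genes in each CK2α'(+/-) mouse (blue) and zQ175:CK2α'(+/-) mouse (red), ordered by log2 fold change, with the mean and SD in black and an asterisk on the 7 genes that passed. Values of zQ175:CK2α'(+/-) mice lie below those of CK2α'(+/-) mice from Ciart to Bhlhe41 and at Cry2, and above them at Arntl.

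Clustered protocadherins, neuronal adhesion proteins encoded in 3 arrays on chromosome 18, had higher values in zQ175:CK2α'(+/-) mice for 50 of 58 genes (median 0.33). Of these, 2 passed, 6 without the libraries labelled WT replicates 4 and 5, 0 with the Xist covariate, and 0 to 1 when 1 of the 8 mice was left out. Pcdhb3 had 2.93, 3.81 and 3.27 CPM in the CK2α'(+/-) mice and 6.75, 5.31, 7.35, 6.63 and 8.41 CPM in the zQ175:CK2α'(+/-) mice (log2 fold change 1.04 ± 0.23 (SE), adjusted p = 0.0733), and Pcdhb20 had 12.3, 14.8 and 13.2 CPM in the CK2α'(+/-) mice and 21.6, 21.97, 27.7, 27.02 and 18.03 CPM in the zQ175:CK2α'(+/-) mice (log2 fold change 0.79 ± 0.19 (SE), adjusted p = 0.0966). Groups were separated for both. The β array had the highest median (0.59, with 21 of 22 genes higher and 10 separated), followed by the α array (0.32, 13 of 14 higher, none separated) and the γ array (0.14, 16 of 22 higher, 2 separated), beside the 8.34% separated among all genes tested. Pcdhga2 came next by p and did not pass (0.62, adjusted p = 0.12). The summed CPM of the 58 genes was 731 to 796 in the CK2α'(+/-) mice and 843 to 1007 in the zQ175:CK2α'(+/-) mice. The γ genes share their last exons and overlap on 1 strand, as do the α genes, so that their counts are not independent measurements. Pcdh10, a protocadherin outside the arrays named after its value was seen, rose too (0.42, adjusted p = 0.0591).

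Of the 12 GABA-A receptor subunits tested, 1 passed, or 2 without the libraries labelled WT replicates 4 and 5. Gabrd, the δ subunit of extrasynaptic receptors, had 53.3, 57.8 and 69.5 CPM in the CK2α'(+/-) mice and 31.3, 26.9, 25.6, 32.7 and 30.4 CPM in the zQ175:CK2α'(+/-) mice and was 2.05-fold lower (log2 fold change -1.03 ± 0.14 (SE), adjusted p = 0.00194). The median of the subunits was 0.05, and Gabra4 (-0.40, adjusted p = 0.132) did not pass. No glutamate receptor passed among 22 tested (median -0.16), with the smallest p-values at Grik2 (-0.37, adjusted p = 0.331), Grin2b (-0.25, adjusted p = 0.436) and Grm4 (-0.37, adjusted p = 0.544). None of 13 postsynaptic scaffolds passed (median -0.04), led by Shank3 (-0.37, adjusted p = 0.257), Dlg4 (-0.25, adjusted p = 0.478) and Dlgap3 (-0.27, adjusted p = 0.557). None of 7 neurotrophins and receptors passed (median -0.08), led by Ntrk3 (-0.26, adjusted p = 0.663), Sort1 (-0.11, adjusted p = 0.798) and Ntrk2 (-0.08, adjusted p = 0.85). Immediate early genes gave 0 calls of 17 (median -0.22), led by Dusp1 (-0.53, adjusted p = 0.395), Junb (-0.68, adjusted p = 0.5) and Homer1 (-0.39, adjusted p = 0.586).

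Myelin genes included 2 calls of 13, with 3 without the libraries labelled WT replicates 4 and 5, 0 with the Xist covariate and 0 whichever of the 8 mice was left out. Mal, a proteolipid of compact myelin, had 273, 367 and 286 CPM in the CK2α'(+/-) mice and 214, 180.2, 237, 187 and 208 CPM in the zQ175:CK2α'(+/-) mice (log2 fold change -0.59 ± 0.14 (SE), adjusted p = 0.0905). Mobp, a myelin-associated basic protein, had 1317, 1710.1 and 1242 CPM in the CK2α'(+/-) mice and 1011, 924, 1081, 778 and 949 CPM in the zQ175:CK2α'(+/-) mice (log2 fold change -0.59 ± 0.14 (SE), adjusted p = 0.0989). Both were separated between groups. The median of the list was -0.15, and Cldn11 did not pass (-0.50, adjusted p = 0.142). Summed over the 13 genes, the level was 6286 to 7908 CPM in the CK2α'(+/-) mice and 4529.8 to 6141 CPM in the zQ175:CK2α'(+/-) mice. Astrocyte genes had a median of -0.21 with 0 of 14 calls, led by Glul (-0.44, adjusted p = 0.161), Aldoc (-0.35, adjusted p = 0.196) and Aldh1l1 (-0.33, adjusted p = 0.359), and their summed level was 5111 to 5629.7 CPM in the CK2α'(+/-) mice and 4127 to 4582 CPM in the zQ175:CK2α'(+/-) mice. Microglia genes had a median of 0.01 with 0 of 14, led by Fcrls (-1.16, adjusted p = 0.455), Itgam (0.48, adjusted p = 0.481) and Tmem119 (0.45, adjusted p = 0.521), and oligodendrocyte precursor genes 0.09 with 0 of 11, led by Enpp6 (0.53, adjusted p = 0.462), Pdgfra (0.19, adjusted p = 0.536) and Bmp4 (1.32, adjusted p = 0.566). Endothelial and mural genes had a median of -0.32 with 0 of 13, led by Flt1 (-0.36, adjusted p = 0.334), Rgs5 (-0.45, adjusted p = 0.364) and Slco1a4 (-0.51, adjusted p = 0.553). Their summed level was 232 to 272 CPM in the CK2α'(+/-) mice and 188 to 226 CPM in the zQ175:CK2α'(+/-) mice. The summed levels of the myelin, astrocyte and endothelial lists did not overlap between groups, and their part in the calls was not tested. This was not particular to them. Summed glutamate receptor genes were also separated, at 4303 to 4612 CPM in the CK2α'(+/-) and 3787 to 4279 CPM in the zQ175:CK2α'(+/-) mice. Genes within 2 Mb of Htt were too, at 2978 to 3068 and 2799 to 2956 CPM. Interneuron genes had a median of -0.15 with 0 of 18, led by Vip (-1.57, adjusted p = 0.738), Pvalb (-0.47, adjusted p = 0.756) and Sst (-0.22, adjusted p = 0.79).

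**Figure D4:**
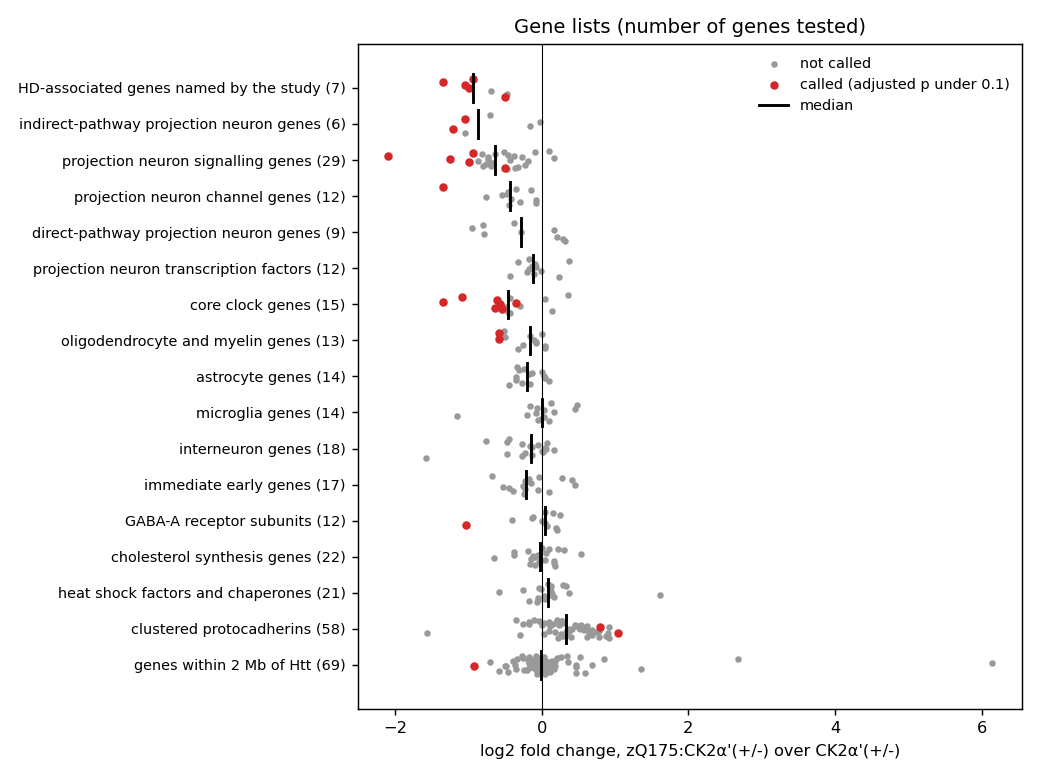
Log2 fold change of each gene tested (points) in 17 of the lists, with called genes in red, the list median as a black bar and the number of genes tested in brackets. Medians of the projection neuron, Huntington's disease and clock lists lie to the left of 0 and that of clustered protocadherins to the right, with single genes on either side in the direct-pathway, transcription factor, clock and protocadherin lists. The far right point among genes near Htt has no count in CK2α'(+/-) mice, so that its fitted value is no measure of size.

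Chaperones, cholesterol synthesis and mitochondrially encoded genes gave 0 calls of 21, 22 and 13 in the main edgeR fit, with medians of 0.08, -0.03 and 0.12. Of the chaperone genes, 1 passed with DESeq2 and 1 with only the 8 libraries. The smallest p-values were at Hspa8 (0.30, adjusted p = 0.17), Bag3 (0.34, adjusted p = 0.51) and Hspa5 (0.37, adjusted p = 0.5) for chaperones, Msmo1 (-0.38, adjusted p = 0.329), Insig1 (-0.38, adjusted p = 0.396) and Mvk (0.54, adjusted p = 0.544) for cholesterol synthesis, and mt-Nd4l (0.61, adjusted p = 0.454), mt-Nd6 (-0.28, adjusted p = 0.61) and mt-Atp6 (0.19, adjusted p = 0.73) for mitochondrial genes. Of the lists with no call in the main edgeR fit, the glutamate receptor, astrocyte, cortical, and CK2, huntingtin and synuclein lists each had 1 without the libraries labelled WT replicates 4 and 5, beside the direct-pathway list. Hspa8, a constitutive chaperone, had 736, 676 and 749 CPM in the CK2α'(+/-) mice and 859, 876, 954, 872 and 862 CPM in the zQ175:CK2α'(+/-) mice, without overlap, and the summed level of the 21 chaperone genes was 3199 to 3514 CPM in the CK2α'(+/-) mice and 3680.1 to 3921 CPM in the zQ175:CK2α'(+/-) mice.

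Huntingtin itself was lower without passing across all genes. Htt had 187, 178 and 168 CPM in the CK2α'(+/-) mice and 137, 119, 133, 145 and 151 CPM in the zQ175:CK2α'(+/-) mice, without overlap (log2 fold change -0.37 ± 0.11 (SE), adjusted p = 0.168). Tested as a single gene, its mean log2 CPM was 0.38 lower, with p = 0.0179 in an exact two-sided permutation test of 5 against 3 mice, the smallest p this design allows, and lower in 5 of 5 zQ175:CK2α'(+/-) mice than in any CK2α'(+/-) mouse. The knock-in allele carries a chimeric exon 1, and whether its reads were counted as fully as those of the mouse allele was not tested. The difference in Csnk2a2 was within the spread between mice, with 17.4, 14.7 and 18.02 CPM in the CK2α'(+/-) mice and 18.3, 16.3, 19.9, 17.9 and 15.8 CPM in the zQ175:CK2α'(+/-) mice (difference 0.08 on the log2 scale, exact permutation p = 0.464). Among CK2 subunits, huntingtin and synucleins 0 of 7 passed (median 0.06), with Csnk2a1 (0.11, adjusted p = 0.858) and Sncb (-0.22, adjusted p = 0.789) next by p. Of 69 genes tested within 2 Mb of Htt on chromosome 5, 1 passed (3 without the libraries labelled WT replicates 4 and 5) and the median was -0.01. The gene was Gm15513 (GRCm38 chromosome 5, 34211810 to 34213802), with 17.9, 19.99 and 17.8 CPM in the CK2α'(+/-) mice and 9.79, 8.97, 9.37, 11.04 and 9.86 CPM in the zQ175:CK2α'(+/-) mice (log2 fold change -0.92 ± 0.16 (SE), adjusted p = 0.0166). It lies within Zfyve28 on the same strand, which did not pass (-0.51, adjusted p = 0.157), so that reads of the host gene cannot be told apart from it.

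Sex-linked transcripts were unevenly spread. Xist, expressed from the inactive X chromosome, had 5.202, 2.28 and 1259 CPM in the CK2α'(+/-) mice and 1021, 1272, 990.3, 1258 and 8.05 CPM in the zQ175:CK2α'(+/-) mice, high in 1 of 3 CK2α'(+/-) and 4 of 5 zQ175:CK2α'(+/-) mice. The Y-linked genes Ddx3y, Kdm5d, Eif2s3y and Uty were the reverse, and Ddx3y had 73.7, 63.4 and 0.0667 CPM in the CK2α'(+/-) mice and 0, 0, 0, 0 and 65.99 CPM in the zQ175:CK2α'(+/-) mice. None of the 10 sex-linked genes passed (median 0.28), with Kdm5c (0.34, adjusted p = 0.364), Kdm6a (0.34, adjusted p = 0.626) and Tsix (0.97, adjusted p = 0.622) smallest by p. With the Xist level as a covariate 75 genes passed, 63 of the 124 among them. Summed markers of neighbouring tissue varied most in the choroid plexus and thalamic lists. Summed choroid plexus and ependymal genes ranged from 27.0 to 1052 CPM in the CK2α'(+/-) mice and from 21.9 to 3283 CPM in the zQ175:CK2α'(+/-) mice (median log2 fold change 0.48, 0 of 13 passing). That median rested on single mice, ranging from -1.98 to 3.24 when 1 mouse was left out. Thalamic genes ranged from 84.3 to 645 and from 75.6 to 494 CPM (median -0.72, 0 of 8), cortical excitatory genes from 135 to 266 and from 187 to 271 CPM (median -0.08, 0 of 12), and hippocampal genes from 156 to 171 and from 135 to 160.0 CPM (median -0.07, 0 of 7). Among them Neurod2, a cortical transcription factor, had 0.808, 1.05 and 1.33 CPM in the CK2α'(+/-) mice and 11.3, 7.11, 8.88, 12.95 and 10.04 CPM in the zQ175:CK2α'(+/-) mice, without overlap (3.25, adjusted p = 0.145), and Nrn1, a neuritin, was also separated (1.49, adjusted p = 0.415). The next by p were Rspo1 (-1.14, adjusted p = 0.566) for the cortex, Wfs1 (-0.39, adjusted p = 0.524) and Dsp (0.43, adjusted p = 0.877) for the hippocampus, Gbx2 (-1.08, adjusted p = 0.749), Synpo2 (-0.74, adjusted p = 0.719) and Ramp3 (-0.96, adjusted p = 0.798) for the thalamus, and Prlr (1.45, adjusted p = 0.831), Otx2 (0.96, adjusted p = 0.892) and Foxj1 (-0.28, adjusted p = 0.89) for the choroid plexus and ependyma. Without zQ175:CK2α'(+/-) replicate 2, Prlr and Otx2 had negative log2 fold changes of -1.98 and -1.71. The part of sex and of neighbouring tissue in the calls was not tested beyond the covariate fit.

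The zQ175 effect with both CK2α' alleles present was the same contrast in 5 zQ175 and 5 WT mice, which shares no library with the CK2α'(+/-) comparison. Of the 124 genes, 113 (91.1%) had the same direction there, against 59.4% of all genes tested. In that contrast 230 genes (1.1%) passed, among them 25 of the 124, which is 20.2% of the 124 and 10.9% of the 230. The spread used there came from all 18 libraries, and 0 genes passed with only the groups compared in the fit. The libraries labelled WT replicates 4 and 5 bear on these values. For each library, the called genes nearer on the log2 scale to the zQ175:CK2α'(+/-) than to the CK2α'(+/-) mean were counted. WT replicates 1, 2 and 3 lay on the knock-in side for 34, 30 and 23 of the 124, the zQ175 libraries for 98 to 116, and the libraries labelled WT replicates 4 and 5 for 98 and 99. Hoxc4 was at 0 CPM in WT replicates 1 to 3, at 7.92 and 13.2 CPM in the 2 libraries labelled WT that stood apart, and at 2.86 to 14.0 CPM in zQ175 mice. Ryr1 ran the other way, with 81.4 to 153 CPM in WT replicates 1 to 3, 25.5 and 40.2 CPM in those 2 libraries and 13.6 to 42.7 CPM in zQ175 mice. The labels were kept as given.

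**Figure D5:**
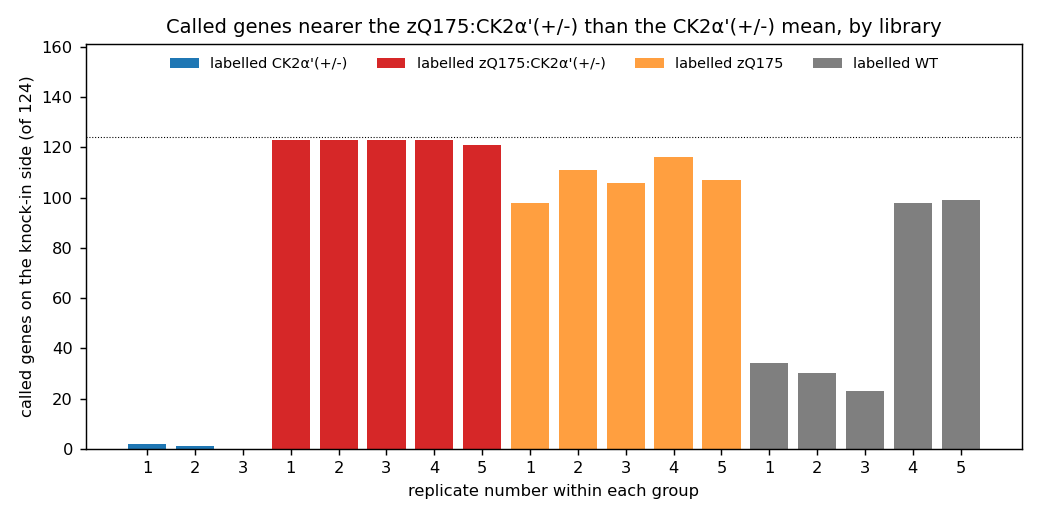
Number of the 124 called genes on the knock-in side (vertical axis) in each of the 18 libraries by labelled genotype and replicate number. The CK2α'(+/-) and zQ175:CK2α'(+/-) libraries chose the genes, so that their bars, 0 to 2 and 121 to 123, are no result, whereas the libraries labelled WT replicates 4 and 5 reach 98 and 99 and WT replicates 1 to 3 stay between 23 and 34.

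Without those 2 libraries, 515 genes of 20629 (2.5%) passed between zQ175 and WT. The libraries stood apart over the 124 genes themselves, so that leaving them out moves those genes towards agreement by construction, and no overlap or direction count of the 124 is given for that fit. For single genes, the log2 fold change between zQ175 and WT is given with all WT libraries and then without the 2. It was -1.002 and -1.32 for Penk, -1.12 and -1.53 for Adora2a, -1.65 and -2.16 for Ryr1 and -1.10 and -1.49 for Scn4b. All 4 passed in both fits. It was -0.32 and -0.41 for Ciart (adjusted p = 0.456 and 0.376), -0.32 and -0.62 for Dbp (adjusted p = 0.361 and 0.00485) and -0.02 and -0.14 for Hlf (adjusted p = 0.974 and 0.738). The list medians were -0.77 and -1.13 for the indirect pathway, -0.10 and -0.26 for the clock genes, and 0.16 and 0.18 for the clustered protocadherins.

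The difference between the 2 contrasts was tested as an interaction. It passed for 1 gene of 20914 (0.00478%) with edgeR, for 19 with DESeq2 and for 0 of 20629 without the 2 libraries, and 1127 (5.39%) and 897 (4.35%) genes had an unadjusted p under 0.05 in the 2 edgeR fits. The gene was BC067074 (GRCm38 chromosome 13, 113293159 to 113379711), with 7.42, 7.83 and 6.47 CPM in the CK2α'(+/-) mice and 18.9, 24.7, 13.4, 21.4 and 13.9 CPM in the zQ175:CK2α'(+/-) mice, and 6.56 to 13.9 CPM in zQ175 and 11.9 to 15.9 CPM in WT mice (interaction 1.79 ± 0.29 SE, adjusted p = 0.0951). It rose within CK2α'(+/-) mice (1.34, adjusted p = 0.0166) and did not pass between zQ175 and WT (-0.45, adjusted p = 0.293). The next smallest p-values did not pass, namely Crnde (interaction 3.47, adjusted p = 0.194), Iqcj (-3.01, adjusted p = 0.635), Gm2991 (2.83, adjusted p = 0.635) and Hoxc8 (adjusted p = 0.635). Among the clock genes 7 of 15 had an unadjusted interaction p under 0.05, and none passed. Ciart had an interaction of -1.02 ± 0.28 SE (adjusted p = 0.811).

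Features that the test did not use are given as descriptions of the called genes beside all genes tested. The called genes were spread over 20 chromosomes. Of the 124, 104 (83.9%) were protein coding, against 70.3% of all genes tested. Their median level over the 8 mice was 24.3 CPM, 10.8 for those that rose and 40.9 for those that fell, against 7.55 CPM over all genes tested, so that the power of the test and these features cannot be told apart. The median genomic span was 37603 bases for the genes that rose and 23096 for those that fell, against 14888 for all. Another gene tested overlapped 45 of the 124 (36.3%), against 42.8% of all.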

How the data were processed

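Striatal total RNA of 18 mice was prepared with the Takara stranded pico kit and sequenced as paired 50-base reads. The authors used Trimmomatic for trimming and HISAT2 2.1.0 for alignment (build GRCm38), dropped duplicate, unmapped and low-quality alignments, and counted genes with Subread 1.6.2. The strand setting was not given in the sources used here. The deposited values are raw counts per gene, beside a length in bases (the deposited Length column, another quantity, not a count), for 55421 genes. Total counts were 13612381 to 22702547 per library.

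Genes passing filterByExpr (20914) were tested with edgeR 4.0.16 (R 4.3.3), using TMM scaling and the quasi-likelihood test, with genotype as the only term and all 18 libraries in 1 fit, at a Benjamini-Hochberg adjusted p under 0.1. CPM were TMM-scaled, with a prior count of 2 on the log2 scale. Each library was 1 mouse. Replicate numbers were not shown to pair mice. Members and gene lists were chosen with earlier results of these data known. Genes named were up to 12 in each direction with the largest change among called genes that did not overlap and averaged at least 1 CPM, list members that passed, the 3 smallest p-values of each list, Csnk2a2, Htt and sex-linked genes, and the 5 smallest interaction p-values. Others are said to have been chosen after their values were seen. Some results under this rule are not reported here. Alternatives were DESeq2 1.42.0, its size factors, other count filters, robust fitting, a stricter threshold, only the groups compared, an Xist covariate, a replicate block and leaving out each mouse. Leaving out the libraries labelled WT replicates 4 and 5 was chosen after seeing the data. The code was tested on simulated counts. Counting intervals and floors cover counting error only.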

Additional observations from a re-analysis of the deposited data

Results flagged for a closer look

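Among 140 named genes, 14 had 1 of the 5 zQ175:CK2α'(+/-) mice far from the other 4 by Dixon's criterion, which chance meets in about 1 of 20 groups. Replicate 2 stood apart at Cry2 (93.4 CPM), Otx2 (17.5 CPM), Prlr (92.2 CPM) and Wnt8b (0.861 CPM). Replicate 3 stood apart at Gm19410 (16.3 CPM) and Hspa8 (954 CPM). Replicate 4 stood apart at Hoxc8 (11.9 CPM), Hoxc6 (10.2 CPM) and Wnk4, a kinase regulating ion transport that was named after its value was seen (17.5 CPM). Replicate 5 stood apart at Xist (8.05 CPM) and at the Y-linked genes Ddx3y (66.0 CPM), Kdm5d (55.2 CPM), Uty (40.3 CPM) and Eif2s3y (39.3 CPM).

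The edgeR interaction test estimated the knock-in difference at BC067074 to differ with the CK2α' allele by 1.79 on the log2 scale. Values were higher in 5 of 5 zQ175:CK2α'(+/-) mice than in any CK2α'(+/-) mouse, which describes the knock-in difference and not the interaction. Its adjusted p was 0.0951, and 0.528 without the libraries labelled WT replicates 4 and 5.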

How the results depend on the processing

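Counts of genes passing depended on the fit more than on the scaling. Between zQ175:CK2α'(+/-) and CK2α'(+/-) mice, 124 genes passed, and 322 with DESeq2, 297 with no filter on low counts, 461 with only the groups compared, 291 without the libraries labelled WT replicates 4 and 5, 75 with the Xist covariate, 27 at an FDR of 0.05, and 6 to 48 without 1 mouse. With the replicate block, 12 passed. The corresponding counts between zQ175 and WT were 230, and 855 with DESeq2, 451 unfiltered, 0 with only the groups compared, 515 without the 2 libraries, 51 at an FDR of 0.05, and 0 to 587 without 1 mouse, where 587 passed without WT replicate 2 and 0 without WT replicate 3 or zQ175 replicate 5. With the replicate block, 98 passed. For the interaction, 1 gene passed, and 19 with DESeq2, 10 unfiltered, 0 with the Xist covariate, at an FDR of 0.05 or without the 2 libraries, and 0 to 2 without 1 mouse. Of the list genes, 21 passed, and 40 with DESeq2, 53 unfiltered, 70 with only the groups compared, 48 without the 2 libraries, 10 with the Xist covariate, 8 at an FDR of 0.05, and 4 to 10 without 1 mouse. With the replicate block, 4 list genes passed. The Csnk2a2 difference was -0.00948 to 0.138 without 1 mouse, turning direction without CK2α'(+/-) replicate 2, and that of Htt was -0.417 to -0.328. By edgeR, Csnk2a2 also turned without that mouse, ranging from -0.00408 to 0.14 without 1 mouse. Otx2 (-1.71 to 3.96) and Prlr (-1.98 to 3.33) turned without zQ175:CK2α'(+/-) replicate 2, which gave their lowest values. With the Xist covariate, Xist (-0.000744), Foxj1 (0.031), Kdm5d (0.828), Eif2s3y (0.896), Uty (0.598) and Ddx3y (0.463) turned. None of these had passed, and no other of the 140 named genes turned under DESeq2, only the groups compared, the Xist covariate, the replicate block or leaving out 1 mouse. The cause of these changes was not tested. Deviations of mice sharing a replicate number correlated at -0.136 to 0.120 over 24 pairs, so that the block pairs mice by number alone. A group of 3 mice limits the smallest exact p to 0.0179.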
